A study of Mus musculus with 6 samples.

Results

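Transcripts of the translation initiation and elongation factors were compared between Mettl5 knockout and wild-type mouse brains. The members were the genes of the deposited expression table whose symbol starts with Eif or Eef. The kinase genes Eif2ak1 to Eif2ak4, the eIF4E-binding protein genes Eif4ebp1 to Eif4ebp3, Eef2k and the Y-linked Eif2s3y were left out, 9 genes in all. This left 57 members among 18491 genes, of which 47 were initiation factor genes (Eif) and 10 elongation factor genes (Eef) by symbol. No measured value entered the choice by symbol. The samples were brain RNA taken at postnatal day 28 from the inbred mouse strain C57BL/6N. There were 3 libraries of Mettl5-/- brains and 3 of wild-type brains, with no other agent or allele in either group. Mettl5 encodes the methyltransferase that places N6-methyladenosine on the RNA of the small ribosomal subunit, the particle that initiation factors bring to the messenger RNA. Ribosomal RNA was not measured here. The labels give neither the deleted part of Mettl5 nor whether each library came from a separate animal, so the p-values reflect library-to-library spread that could be technical.

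Translation begins when eIF2 brings the initiator transfer RNA to the small ribosomal subunit. The subunit is held ready by eIF1, eIF1A and the many-subunit eIF3, while eIF4E, eIF4G and eIF4A bring it to the capped messenger RNA. eIF5 triggers GTP hydrolysis on eIF2 at the start codon, eIF2B reloads eIF2 with GTP, and eIF5B joins the large subunit. In elongation, eEF1A delivers aminoacyl-transfer RNA, the eEF1B complex recycles eEF1A, and eEF2 moves the ribosome along. Neurons are known for replacing eEF1A1 with its paralogue eEF1A2 as they mature, and mutations of eIF2B subunits cause a white matter disease in humans. Several members carry the family name without being initiation or elongation factors in the strict sense. Eif4a3 belongs to the exon junction complex, Eif4enif1 encodes the eIF4E transporter 4E-T, Eef1e1 encodes a partner of the multi-synthetase complex, and Eef1akmt1 and Eef2kmt encode methyltransferases of elongation factors.

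Expression was given as FPKM, mapped fragments scaled to transcript length and library total. FPKM holds no read totals, so the depth is unknown and no counting interval is given. Per-library sums were 350727 to 366861 FPKM in the knockout and 353994 to 377334 FPKM in the wild type. Mettl5 itself was listed at 2.79, 3.81 and 2.40 FPKM in the knockout libraries, against 4.78, 5.16 and 5.92 FPKM in the wild-type libraries, so the knockout values were lower without overlap but not at 0. The neuronal markers summed to 2171 to 2286 FPKM in the knockout and 2221 to 2329 FPKM in the wild type, and all 6 were present in every library. Snap25 made up most of that sum, while Rbfox3 was higher (log2 fold change of knockout over wild type 0.32) and Nefl lower (-0.47) in the knockout without overlap, neither past an adjusted p of 0.05. The libraries differed in other tissue markers. The 7 cerebellar markers summed to 797 FPKM in knockout library 2, and to 69.2 and 92.7 FPKM in knockout libraries 3 and 1, against 68.1 to 117 FPKM in the wild type, where Pcp2 was at 0 in library 3. The 5 thalamic markers summed to 26.8 FPKM in knockout library 3, and to 91.3 and 127 FPKM in the other knockout libraries, against 91.8 to 126 FPKM in the wild type. All 8 oligodendrocyte markers were below the wild type in every knockout library, with sums of 5219, 5591 and 2075 FPKM in knockout libraries 1, 2 and 3, against 6298 to 7538 FPKM in the wild type. Red cell markers, 5 genes, summed to 11.8 to 567 FPKM in the knockout, where Hbb-bt was at 0 in library 1, and to 49.8 to 2834 FPKM in the wild type, highest in library 2. In bulk tissue, fewer cells of a type and less RNA per cell cannot be told apart. Choroid plexus markers, 5 genes, summed to 253 to 442 FPKM in the knockout and 369 to 531 FPKM in the wild type, and Ttr made up most of that sum. All 5 had a fold change below 0. Folr1 (-0.39) and Calml4 (-0.57), at low mean levels of 2.17 and 1.05 FPKM, were lower in the knockout without overlap. Among the other lists, the astrocyte genes Gfap (log2 fold change -0.58) and Gja1 (-0.24), the precursor genes Gpr17 (-0.71) and Neu4 (-0.30), and the microglial gene C1qa (-0.19) were lower in the knockout without overlap, on the log2(FPKM + 1) scale. The astrocyte and precursor lists did not move as a whole. Of the 6 astrocyte genes, 2 had a fold change above 0 (Slc1a3 at 0.33 and Slc1a2 at 0.0024) and 4 below. Of the 5 precursor genes, 2 were above 0 (Pdgfra at 0.12 and Cspg4 at 0.15) and 3 below. In contrast, all 6 microglial genes had a fold change below 0, and 3 of 4 endothelial genes one above 0. The part of the tissue markers in the members' values was not tested. Leaving out 1 library moved the fold change by more than 1.5 times, or changed its sign, in 25 of 28 named members, the exceptions being Eif5, Eif4enif1 and Eif2s1.

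Promoter windows are shown for the 3 members whose genotypes did not overlap (Eif5, Eif4enif1 and Eif5a2) and for 3 further members chosen because they hold the motifs described next. Each runs 5′ to 3′ on the gene's strand, from 80 bases before to 30 after the annotated start, in the mouse build GRCm38.p6 as given by RefSeq. Capitals mark motif matches on either strand: the ETS family motif CCGGAAGT, the E-box CACGTG, the cyclic AMP response element TGACGTCA, and the TATA box TATAAA. They also mark the CCAAT box, which reads ATTGG where it lies on the other strand.
Eif5, chr12:111538021-111538130, plus strand: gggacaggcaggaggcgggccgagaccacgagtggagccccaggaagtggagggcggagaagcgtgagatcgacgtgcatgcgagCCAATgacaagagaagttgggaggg
Eif4enif1, first of 4 annotated starts, chr11:3202273-3202382, plus strand: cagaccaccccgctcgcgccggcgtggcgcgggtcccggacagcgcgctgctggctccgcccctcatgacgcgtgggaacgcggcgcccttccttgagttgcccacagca
Eif5a2, chr3:28781197-28781306, plus strand: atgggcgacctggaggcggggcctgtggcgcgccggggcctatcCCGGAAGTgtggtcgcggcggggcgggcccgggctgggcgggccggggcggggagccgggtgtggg
Eef1b2, chr1:63176751-63176860, plus strand: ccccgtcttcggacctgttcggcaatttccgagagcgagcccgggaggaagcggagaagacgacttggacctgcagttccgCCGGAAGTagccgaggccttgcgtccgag
Eif2b4, chr5:31193110-31193219, minus strand: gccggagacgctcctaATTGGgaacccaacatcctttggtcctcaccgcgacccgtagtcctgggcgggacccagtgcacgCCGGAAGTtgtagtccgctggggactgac
Eef2, chr10:81176551-81176660, plus strand: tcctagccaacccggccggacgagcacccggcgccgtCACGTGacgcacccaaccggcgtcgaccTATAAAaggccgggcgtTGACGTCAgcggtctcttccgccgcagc

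Of the 57 members, 44 had a window in that table, searched from 250 bases before to 50 after each start. CCGGAAGT was present in 8 of the 44 (18.2%), against 6.62% of 14657 genes of the expression table with such windows, and these 8 were Eef1b2, Eif2b2, Eif2b4, Eif3d, Eif3l, Eif4e2, Eif5a and Eif5a2. CACGTG was present in 11 members (25%), against 10.1% of all genes, among them Eef2, Eif4a1, Eif4g1 and Eif4h. CCAAT was present in 14 members (31.8%, against 42.2%), TATAAA in 4 (9.09%, against 11.7%) and TGACGTCA in 1, Eef2 (2.27%, against 2.92%). The NRF1 motif was found in 1 member, Eif3k (2.27%, against 1.74%), and TGATGNAA, the core of the element bound by the stress factor ATF4, in 1, Eif2s3x (2.27%, against 3.32%). Genes with several annotated starts had several windows searched. These matches describe the letters of the windows and were not tested against the expression values.

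The members are among the more abundant transcripts of the brain. Of the 57, 10 averaged at least 100 FPKM over the 6 libraries, 40 lay at 10 to under 100 FPKM, 5 at 1 to under 10 FPKM, and 2 under 1 FPKM. The 55 members with a mean of at least 1 FPKM were tested, and their median level was 35.5 FPKM, against 10.9 FPKM over the 12885 genes tested. Together the members made up 1.28% to 1.29% of the summed FPKM in the knockout and 1.23% to 1.29% in the wild type, with overlapping ranges. By level the order was Eef1a1, Eef1a2, Eef2, Eif4a2, Eif5a, Eif1, Eef1g, Eif4a1, Eif4h and Eif3h. In that order, Eif4a2 and Eif5a, Eif5a and Eif1, Eef1g and Eif4a1, and Eif4h and Eif3h overlapped over the 6 libraries, while the other neighbours did not. Both members under 1 FPKM were not tested. Eif4e1b, a relative of eIF4E known from oocytes, had 0.46, 0.18 and 0.36 FPKM in the knockout, against 0.15, 0.29 and 0.32 FPKM in the wild type. Eif3j2, a near-identical copy of Eif3j1 whose reads cannot be assigned with confidence, had 0.22, 0.85 and 0 FPKM in the knockout, against 1.38, 0 and 0.48 FPKM in the wild type.

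**Figure D1:**
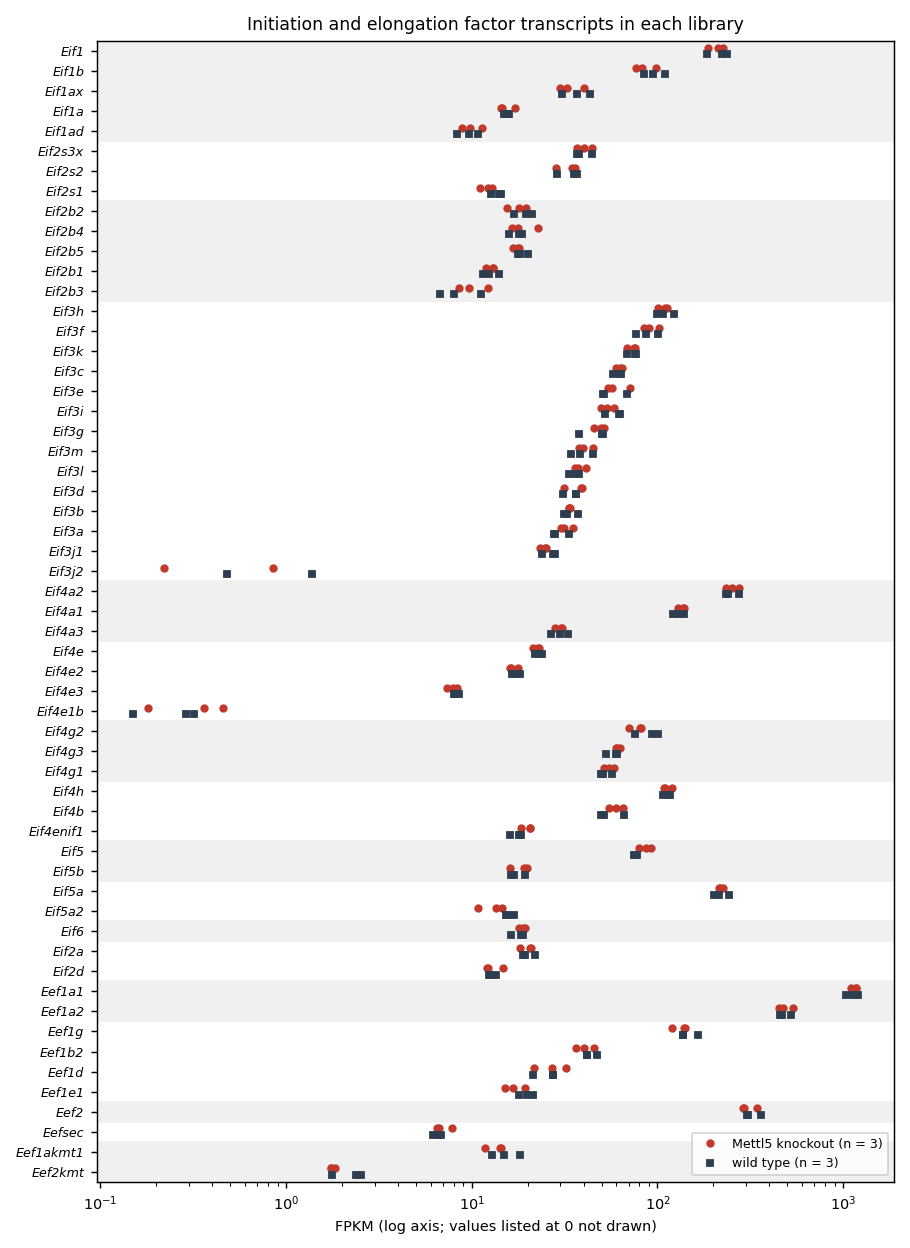
FPKM of all 57 members on a log axis, grouped by factor, with knockout libraries as circles above wild-type libraries as squares (3 each). The ranges of the genotypes overlap for all members but Eif5, Eif4enif1 and Eif5a2, and the levels run from a mean under 1 FPKM for Eif4e1b and Eif3j2 to a mean of 1138 FPKM for Eef1a1; values listed at 0 are not drawn.

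The main comparison asked whether loss of Mettl5 goes with other levels of the factor transcripts. Differences are log2 fold changes of knockout over wild type on the log2(FPKM + 1) scale, where the added 1 shrinks differences of weakly expressed genes, from limma with Benjamini-Hochberg adjustment over all genes tested and a threshold of 0.05. Of the 55 members tested, 0 passed, as did 0% of all 12885 genes, and the lowest adjusted p of a member was 0.79. At an unadjusted p under 0.05 there was 1 member (1.82%), Eif5a2, which was lower in the knockout, against 6.05% of all genes, 2.37% with higher and 3.69% with lower knockout values. In 28 members the fold change was above 0 and in 27 below, against 49.1% above 0 over all genes, and the median was 0.0049, against -0.0032 over all genes. After rescaling each library to a common sum, 36 of the 55 were above 0 and the median was 0.034, against 0.023 over all genes. The share of all genes above 0 was not counted after that rescaling, so the 36 cannot be read as particular to the members. The fold changes of the members ran from -0.28 to 0.22, and 37 members lay within 0.1 of 0. On the log2(FPKM + 1) scale, the 95% interval lay within 1.5-fold in both directions for 54 of the 55 members (98.2%). The share was 81.1% over all genes tested, and Eif2b3 was the exception among the members. This count was not repeated with 0.1 added instead of 1, where Eif5a2 and Eef2kmt differed by -0.30 (SE 0.13) and -0.29 (SE 0.19). No member had a fold change of 0.5 or more in size, against 2.43% of all genes.

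**Figure D2:**
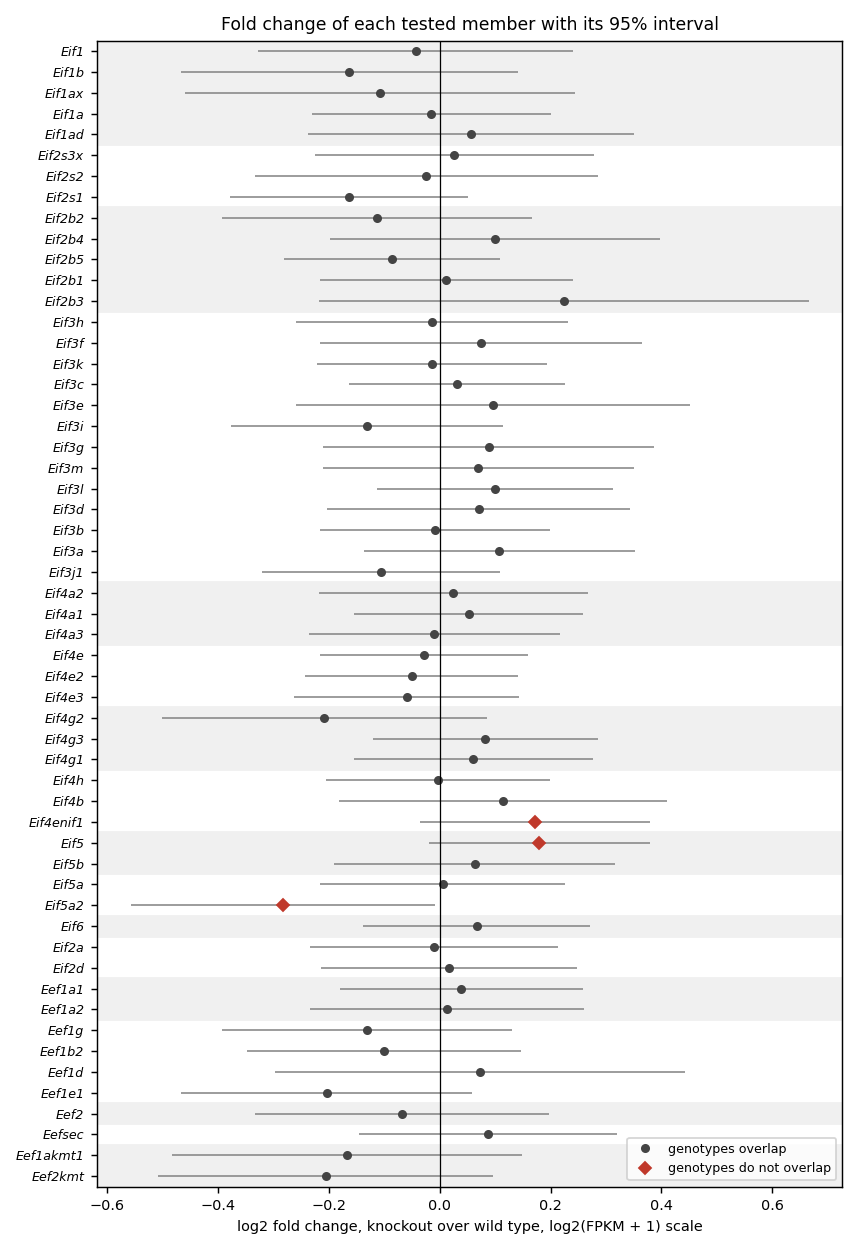
Log2 fold change (knockout over wild type) of the 55 tested members with 95% intervals from limma, grouped by factor; diamonds mark the 3 members whose genotypes do not overlap. The values run from -0.28 for Eif5a2 to 0.22 for Eif2b3, and only the interval of Eif5a2 leaves out 0.

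The genotypes did not overlap for 3 members (5.45%), Eif5 and Eif4enif1 with higher knockout values and Eif5a2 with lower ones. Among all genes tested, 11.9% did not overlap, 5.48% with the knockout above and 6.43% with the knockout below. Eif5, whose product makes eIF2 hydrolyse its GTP at the start codon, had 86.87, 91.73 and 79.98 FPKM in knockout libraries 1, 2 and 3, against 77.34, 75.49 and 74.78 FPKM in wild-type libraries 1, 2 and 3. All 3 knockout values lay above all wild-type values, and the highest came from knockout library 2, the library rich in cerebellar markers. The means were 86.2 ± 5.9 FPKM in the knockout and 75.9 ± 1.3 FPKM in the wild type (SD, n = 3 each). Its fold change was 0.18 (SE 0.086; 95% interval -0.020 to 0.38; limma adjusted p = 0.79). It was 0.13 when knockout library 2 was left out and 0.23 when knockout library 3 was.

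Eif4enif1, whose product carries eIF4E into the nucleus and to P-bodies, had 20.5, 18.5 and 20.5 FPKM in the knockout, against 18.4, 18.1 and 16.1 FPKM in the wild type. The gap between the lowest knockout and the highest wild-type value was small. The fold change was 0.17 (SE 0.089; 95% interval -0.036 to 0.38; limma adjusted p = 0.79). With a library left out it ran from 0.12, without wild-type library 3, to 0.22, without knockout library 2.

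Eif5a2 is the less abundant paralogue of Eif5a, whose product helps stalled ribosomes form peptide bonds. Hypusine is known only from the eIF5A proteins. Eif5a2 had 14.6, 13.5 and 10.8 FPKM in the knockout, against 15.4, 16.8 and 15.4 FPKM in the wild type. All knockout values lay below the wild type, with knockout library 3 lowest. The means were 12.9 ± 2.0 FPKM in the knockout and 15.9 ± 0.83 FPKM in the wild type (SD, n = 3 each), with a fold change of -0.28 (SE 0.12; 95% interval -0.56 to -0.0085; limma adjusted p = 0.79). The fold change was -0.37 without knockout library 1. Without knockout library 3, which was also low in oligodendrocyte and thalamic markers, it was -0.17, a reduction in size by more than 1.5 times. The part of those markers in the value was not tested. Eif5a itself, at 218, 226 and 215 FPKM in the knockout against 215, 242 and 203 FPKM in the wild type, differed by 0.0049 (SE 0.095), with overlapping genotypes.

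Knockout and wild-type libraries that carry the same number in their titles deviated together from their genotype means, and the numbers were taken to pair them. Across the 55 members the correlations of these deviations were 0.71, 0.41 and 0.72 for numbers 1, 2 and 3, as a description over genes that share the same libraries. With the number as a block in the limma fit, 0 members again passed after adjustment (lowest adjusted p 0.305), and 5 members (9.09%) had an unadjusted p under 0.05, against 14.3% of all genes. These were Eif5 and Eif2b3 with higher knockout values, and Eif5a2, Eef1e1 and Eif4g2 with lower ones. The pairing was read from these same expression values, so the fit with the block is not an independent second test. In all 3 pairs the knockout value was higher for 15 members (27.3%, against 19.5% of all genes) and lower for 13 (23.6%, against 20.5%).

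**Figure D3:**
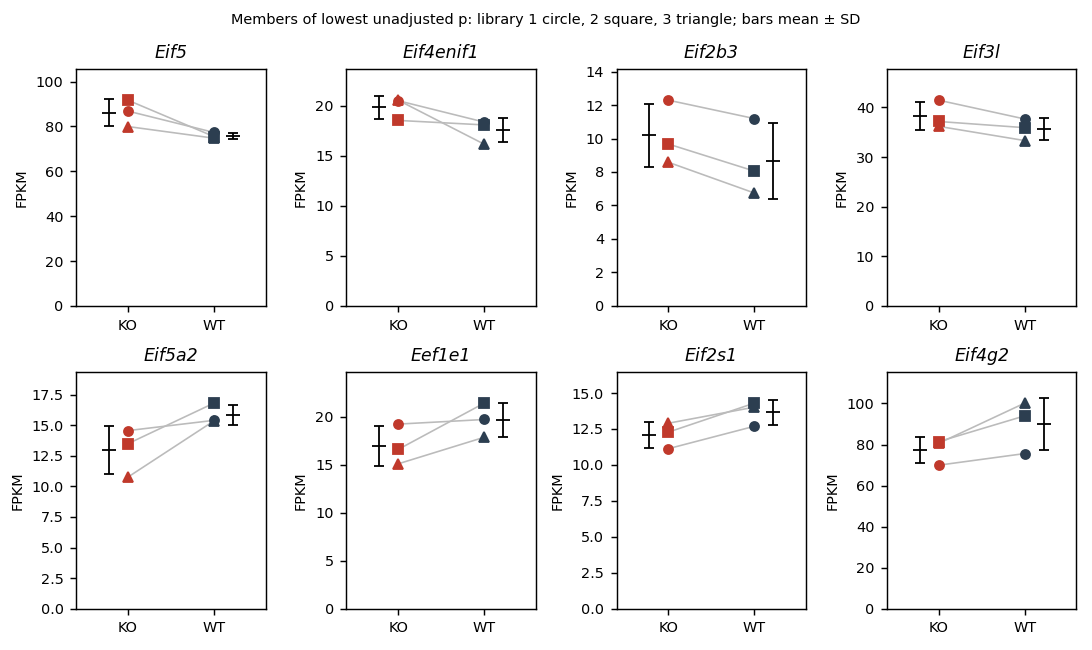
FPKM of the 4 members of lowest unadjusted p with higher (top) and with lower (bottom) knockout values, knockout left and wild type right; lines join libraries of the same number and bars are mean ± SD (n = 3). Eif2b3 overlaps between genotypes, yet all 3 lines run down from knockout to wild type, and Eif5a2, Eef1e1, Eif2s1 and Eif4g2 run the other way in all 3 pairs.

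Of the eIF2B complex, the exchange factor that reloads eIF2, Eif2b3 (the gamma subunit) had the largest positive fold change of any member tested. It had 12.3, 9.67 and 8.58 FPKM in knockout libraries 1, 2 and 3, against 11.2, 8.05 and 6.74 FPKM in the wild-type libraries of the same numbers. The genotypes overlapped because library 1 was high in both. The fold change was 0.22 (SE 0.19 without the block and 0.076 with it; limma adjusted p = 0.84, and 0.312 with the block), 0.092 without knockout library 1, 0.40 without wild-type library 1 and 0.076 without wild-type library 3. Eif2b2, the subunit gene of highest mean level, had 19.6, 18.1 and 15.4 FPKM in the knockout against 21.1, 19.7 and 16.8 FPKM in the wild type, and was lower in all 3 pairs. Its fold change was -0.11 (SE 0.12), and -0.20 to -0.024 with a library left out. The 5 subunit genes had a median fold change of 0.011, with 3 above 0, and mean levels of 9.42 to 18.5 FPKM.

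The genes of eIF2 itself stood at unequal levels per length, with Eif2s1 (alpha, the subunit phosphorylated under stress) at 11.1, 12.3 and 12.9 FPKM in the knockout against 12.7, 14.3 and 14.0 FPKM in the wild type. Each knockout value was below its same-numbered wild-type value, but the genotypes overlapped. The fold change was -0.16 (SE 0.092; limma adjusted p = 0.80). Eif2s3x, the X-linked gamma subunit gene and the most abundant of the 3, had 44.5, 40.0 and 36.9 FPKM in the knockout against 44.3, 37.1 and 37.8 FPKM in the wild type, a fold change of 0.026 (SE 0.11). Eif2s2, the beta subunit gene, differed by -0.024.

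The eIF3 complex, the scaffold of the small subunit, had 14 genes, of which 13 were tested. Their mean levels per length ran from 25.5 FPKM for Eif3j1 to 109 FPKM for Eif3h. Of the 13, 8 had a fold change above 0 and 5 below, with a median of 0.069, and 0 passed. In 7 of them (Eif3a, Eif3c, Eif3d, Eif3e, Eif3f, Eif3l and Eif3m) the knockout value was higher in all 3 pairs, and in 2 (Eif3i and Eif3k) lower in all 3. Over all genes tested these shares were 19.5% and 20.5%. The 13 genes were read from the same libraries, so they are not separate observations. The largest of these subunits by protein, Eif3a, had 31.3, 30.2 and 35.0 FPKM in the knockout against 28.1, 27.9 and 33.6 FPKM in the wild type, a fold change of 0.11 (SE 0.11), and 0.047 to 0.19 with a library left out. Eif3l had 41.5, 37.2 and 36.2 FPKM in the knockout against 37.7, 35.9 and 33.3 FPKM in the wild type, a fold change of 0.10 (SE 0.092), and 0.042 to 0.14 with a library left out. Both genotypes overlapped in each of these genes. Eif3h had 113, 110 and 101 FPKM in the knockout against 123, 107 and 98.9 FPKM in the wild type, and differed by -0.014.

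The spread of eIF3 genes ran more along the library number than along the genotype. Knockout library 3 was the lowest knockout library in 10 of the 13 genes and wild-type library 3 the lowest wild-type library in 11. Library 1 was the highest of its genotype in 9 of the 13 genes in the knockout and in 9 in the wild type. The median deviation from each gene's mean over the 6 libraries was 0.058, 0.011 and -0.075 in knockout libraries 1, 2 and 3, against 0.070, 0.028 and -0.13 in the wild-type libraries of those numbers. Over all 55 members the same medians were 0.056, 0.0010 and -0.069 in the knockout, against 0.033, 0.044 and -0.093 in the wild type, while over all genes tested they lay between -0.022 and 0.0100. Wild-type library 3 held the lowest of the 6 values for 24 of the 55 members. The matching shares over all genes tested were not counted, for this or for the eIF3 genes, so these counts may not be particular to the members. Leaving out wild-type library 3 gave the members a median fold change of -0.039, against -0.0080 over all genes. In that setting 16 of 55 members were above 0, and the share of all genes above 0 was not counted.

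**Figure D4:**
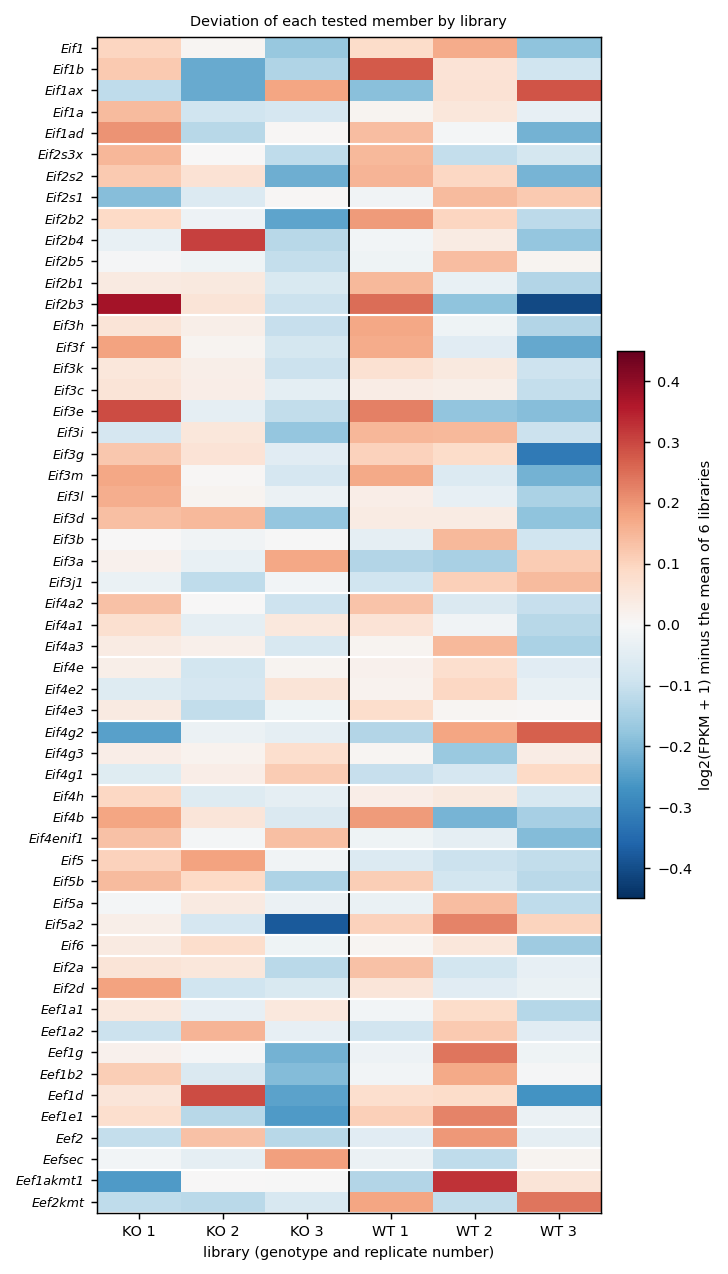
Deviation of each tested member, log2(FPKM + 1) minus its mean over the 6 libraries, with knockout libraries left of wild-type libraries. Most eIF3 genes are above their mean (red) in library 1 and below it (blue) in library 3 of both genotypes, whereas Eif1ax and Eif4g1 run the other way.

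Among the eIF4G genes of the cap-binding machinery, Eif4g2 encodes DAP5, an eIF4G relative that lacks the eIF4E-binding part, and had 69.9, 81.4 and 80.6 FPKM in the knockout, against 75.6, 94.0 and 100 FPKM in the wild type. The knockout was lower in all 3 pairs, although the genotypes overlapped. The fold change was -0.21 (SE 0.13; limma adjusted p = 0.80, and 0.305 with the block), -0.33 without wild-type library 1, and -0.14 and -0.13 without knockout library 1 and wild-type library 3. The canonical scaffold genes Eif4g1 and Eif4g3 differed by 0.061 and 0.082, each with the knockout higher in all 3 pairs. The ratio of Eif4g1 to Eif4g2, chosen after the values were seen, was 0.735, 0.671 and 0.720 in the knockout and 0.657, 0.539 and 0.568 in the wild type, without overlap, and is given with no test for that reason. The ratio of Eif4g3 to Eif4g2, chosen likewise, was 0.866, 0.737 and 0.776 in the knockout and 0.790, 0.561 and 0.605 in the wild type, with overlap. The tested eIF4E relatives Eif4e, Eif4e2 and Eif4e3 all had fold changes below 0, from -0.060 to -0.029. Among the helicases that unwind the leader, Eif4a2 had 275, 251 and 235 FPKM in the knockout against 274, 240 and 233 FPKM in the wild type, and Eif4a1 had 139, 129 and 137 FPKM against 138, 131 and 121 FPKM in the wild type. Their fold changes were 0.025 and 0.052. The cap-binding protein gene Eif4e had 23.0, 21.3 and 22.8 FPKM in the knockout against 22.9, 23.9 and 21.8 FPKM in the wild type, a fold change of -0.029 (SE 0.081). Eif4h, a helper of the helicase, had 120, 108 and 110 FPKM in the knockout against 115, 116 and 107 FPKM in the wild type, a fold change of -0.0031.

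The start-codon factor Eif1 had 226, 213 and 187 FPKM in the knockout against 223, 237 and 186 FPKM in the wild type, and differed by -0.044 (SE 0.12). Its paralogue Eif1b had 98.2, 77.1 and 82.4 FPKM in the knockout against 110, 94.4 and 84.9 FPKM in the wild type, a fold change of -0.16 (SE 0.13), or -0.26 to -0.067 with a library left out, and was lower in all 3 pairs. Both groups overlapped for each gene. Of the alternative transfer RNA carriers, Eif2a had 20.8, 20.7 and 18.2 FPKM in the knockout against 21.9, 18.8 and 19.4 FPKM in the wild type, and Eif2d differed by 0.017. Eif6, whose product keeps the large subunit from joining too early, had 18.8, 19.4 and 18.1 FPKM in the knockout against 18.4, 19.0 and 16.3 FPKM in the wild type, a fold change of 0.066 (SE 0.088).

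The elongation factors included the most abundant members. Eef1a1, the general form, had 1175, 1107 and 1174 FPKM in the knockout against 1126, 1204 and 1040 FPKM in the wild type, a fold change of 0.038 (95% interval -0.18 to 0.26). Eef1a2, the form of mature neurons and muscle, had 452, 539 and 472 FPKM in the knockout against 456, 526 and 467 FPKM in the wild type, a fold change of 0.013 (95% interval -0.23 to 0.26). The translocase gene Eef2 had 292, 345 and 288 FPKM in the knockout against 304, 360 and 306 FPKM in the wild type. Each knockout value was below its same-numbered wild-type value, with a fold change of -0.069 (95% interval -0.33 to 0.20), which turned to 0.012 without wild-type library 2. Library 2 was the highest of its genotype for both Eef1a2 and Eef2, in the knockout and in the wild type.

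Among the partners of eEF1A, Eef1g, a subunit of the exchange complex, had 141, 139 and 120 FPKM in the knockout against 137, 165 and 138 FPKM in the wild type, a fold change of -0.13 (SE 0.11), and -0.18 to -0.044 with a library left out. Eef1e1, the synthetase-complex protein, had 19.2, 16.6 and 15.1 FPKM in the knockout against 19.7, 21.4 and 17.9 FPKM in the wild type. It was lower in all 3 pairs, by 0.034, 0.35 and 0.23 on the log2 scale, but the genotypes overlapped. Its fold change was -0.20 (SE 0.11; limma adjusted p = 0.80). With a library left out it ran from -0.29, without knockout library 1, to -0.13, without knockout library 3. The selenocysteine factor gene Eefsec had 6.68, 6.52 and 7.79 FPKM in the knockout against 6.6, 6.15 and 6.8 FPKM in the wild type, a fold change of 0.087 (SE 0.10). The methyltransferase gene Eef2kmt had 1.75, 1.74 and 1.83 FPKM in the knockout against 2.37, 1.76 and 2.52 FPKM in the wild type, with a fold change of -0.21 (SE 0.13), and -0.31 to -0.14 with a library left out. Eef1akmt1 had 11.8, 14.3 and 14.3 FPKM in the knockout against 12.9, 18.1 and 14.9 FPKM in the wild type, a fold change of -0.17 (SE 0.14), and -0.28 to -0.048 with a library left out. Both were lower in all 3 pairs and overlapped between the genotypes.

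Paralogue ratios within a library were compared for 4 pairs, since a ratio is free of the scaling of the library. Eef1a2 over Eef1a1 averaged 0.425 ± 0.055 in the knockout and 0.430 ± 0.023 in the wild type (SD, n = 3 each; 2-sided exact permutation p = 0.9). The highest of the 6 ratios, 0.487, came from knockout library 2. Eif4a2 over Eif4a1 averaged 1.88 ± 0.14 in the knockout and 1.91 ± 0.078 in the wild type (exact permutation p = 0.8), and Eif1b over Eif1 averaged 0.412 ± 0.043 in the knockout and 0.449 ± 0.047 in the wild type (exact permutation p = 0.4). Eif5a2 over Eif5a was 0.067, 0.060 and 0.050 in knockout libraries 1, 2 and 3, against 0.072, 0.070 and 0.076 in the wild type. Its genotypes did not overlap (exact permutation p = 0.1, the smallest this design allows; 0.4 after Benjamini-Hochberg adjustment over the 4 ratios). Paralogues with similar sequence share fragments that the authors' counting divides by probability, so these ratios carry that uncertainty.

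**Figure D5:**
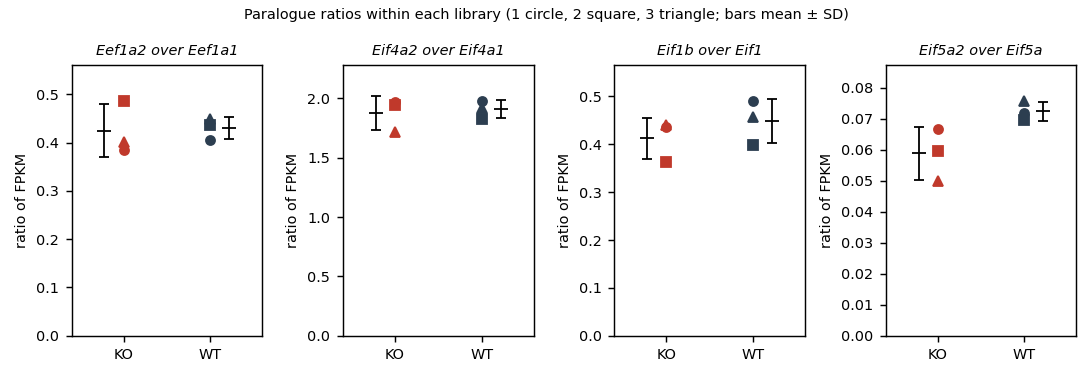
Ratio of FPKM between paralogues within each library, knockout left and wild type right, with mean ± SD (n = 3). The ratios overlap between genotypes for 3 pairs, and Eif5a2 over Eif5a lies at 0.050 to 0.067 in the knockout and at 0.070 to 0.076 in the wild type.

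Other genes of the translation pathway were read in 5 lists, and 0 genes of any list passed the adjusted threshold. Over all genes tested, for reading the counts below, 49.1% had a fold change above 0. Of the same genes, 6.05% had an unadjusted limma p under 0.05 and 11.9% did not overlap between the genotypes. Of 16 genes for kinases that act on translation and for eIF4E-binding proteins, 14 had a fold change above 0 and 2 below (median 0.080), and 1 had an unadjusted p under 0.05. That gene was Eef2k, whose kinase inhibits eEF2. It had 9.07, 10.1 and 8.43 FPKM in the knockout against 7.74, 5.79 and 6.82 FPKM in the wild type, without overlap, a fold change of 0.40 (SE 0.12; limma adjusted p = 0.79). The same-numbered pairs 1, 2 and 3 differed by 0.20, 0.71 and 0.27 on the log2 scale. The highest Eef2k value came from knockout library 2, the library rich in cerebellar markers, and the part of those markers was not tested. Mknk1, an eIF4E kinase gene, and Eif4ebp3 differed by 0.11 and 0.19. Of 15 poly(A)-binding and accessory genes, 6 were above 0 and 9 below (median -0.014), and 0 had an unadjusted p under 0.05. In this list 1 gene had the knockout above the wild type without overlap and 1 had it below. Their lowest unadjusted p values belonged to the helicase gene Ddx3x (fold change 0.18), to Paip2, an inhibitor of poly(A)-binding protein (-0.22), and to Abcf1 (-0.15).

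Of 8 termination, recycling and rescue genes, 6 were above 0 and 2 below, with a median of 0.025. An unadjusted limma p under 0.05 was found for 0 of them, and 2 had the knockout above the wild type without overlap. Gtpbp1, a GTPase of ribosome rescue, differed by 0.14, and the recycling and rescue factor genes Abce1 and Hbs1l by -0.079 and -0.074. Of 9 mitochondrial translation factor genes, 3 were above 0 and 6 below (median -0.13). Without overlap, 1 had the knockout above the wild type and 2 had it below, and 1, Mtrf1, had an unadjusted limma p under 0.05. Mtrf1, a mitochondrial release factor gene, had 3.48 ± 0.26 FPKM in the knockout and 2.66 ± 0.18 FPKM in the wild type (SD, n = 3 each; fold change 0.29; limma adjusted p = 0.79). The mitochondrial elongation factor genes Tufm and Gfm1 differed by -0.26 and -0.14. Of 9 genes for the enzymes that make hypusine on eIF5A and diphthamide on eEF2, 5 were above 0 and 4 below, with a median of 0.013. Only 1, Dnajc24, had an unadjusted limma p under 0.05, and only Dnajc24 did not overlap, with the knockout below. Dnajc24, a diphthamide cofactor gene, had 3.02 ± 0.29 FPKM in the knockout and 4.16 ± 0.33 FPKM in the wild type, a fold change of -0.36 (SE 0.11; limma adjusted p = 0.79), and Dph7 and Dph1 differed by 0.13 and -0.13.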

How the data were processed

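Polyadenylated RNA of 6 brain samples was measured. Per the labels' protocols, Trizol RNA was captured on oligo(dT) beads, fragmented and primed with random hexamers. The deposited values are FPKM per gene and library, per the file headers, with 2 decimals. Bowtie2, RSEM and the build mm10 appear in the submitters' processing notes. The sources used here do not give versions, annotation release, strand setting or filters. RSEM divides shared fragments by probability, which makes values of close paralogues uncertain, and poly(A) capture leaves ribosomal RNA and translation itself unmeasured. Steps of whole reads could be read from only 1 low gene, so no count test was run.

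Genotypes were compared with limma 3.58.1 under R 4.3.3 (a linear fit, then eBayes with trend and robust prior) on log2(FPKM + 1) for 12885 genes averaging 1 FPKM or more over the 6 libraries, 2-sided, with Benjamini-Hochberg adjustment over all of them. The steps were tested on simulated data. Exact permutation used SciPy 1.17.1. Tables and figures were made with pandas 2.3.3 and matplotlib 3.10.9 on Python 3.11.15. Groups came from the genotype label. Same-numbered libraries deviated together across all genes (correlations 0.485, 0.413 and 0.539; other combinations -0.326 to -0.103), so the numbers were taken to pair them, from the data rather than the labels. Deviations from a genotype's own mean cancel within that genotype. Positive values for the same numbers therefore push the other combinations negative, and those add no separate support for the pairing. All 57 members matched RefSeq (GRCm38.p6) by gene ID. Members, lists, pathway genes and tests were chosen with earlier results of these data known. Members described with full values were those of lowest unadjusted p (5 in each direction), those without overlap, the most abundant of each factor group, and 4 paralogue pairs; from each pathway list the 3 genes of lowest p were named. Other members named were chosen after their values were seen. Listed genes absent from the table (Eef1akmt2, Eef1akmt3, Eef1akmt4, Eef1aknmt and Mtrfr) were not analysed here.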

Additional observations from a re-analysis of the deposited data

How the results depend on the processing

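Under 14 alternatives (pseudocount 0.1, no filter, a mean of at least 5 FPKM, rescaling to a common sum, quantile normalization, array weights, eBayes with neither trend nor robust prior, the replicate block, and leaving out each library), 0 members passed an adjusted p of 0.05. The median fold change of the members lay between -0.039 and 0.041, and was below 0 without knockout library 1, knockout library 2 or wild-type library 3. Members at an unadjusted p under 0.05 numbered 1 as reported (6.05% of all genes), 2 with a common sum (6.26%), 2 with quantile normalization (6.29%), 3 with array weights (10.6%), 0 with neither trend nor robust prior (6.12%), 5 with the replicate block (14.3%), which changed no adjusted call, and 0 to 2 when a library was left out (2.44% to 8.63%). Members without overlap numbered 3 as reported (11.9% of all genes), 6 with a common sum (12.7%), 2 with quantile normalization (12.5%), and 4 to 12 when a library was left out, where fewer samples make overlap rarer (16.3% to 26.8%). Mettl5 kept its direction and did not pass in any alternative that gave a value (fold change -0.82 to -0.55, adjusted p 0.285 to 1.0). The filter at 5 FPKM removes it. Of 391 combinations of 28 named members and alternatives, 36 changed sign, in 11 members whose reported fold change was smaller than its SE, and the lowest adjusted p was 0.305.

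The cause of these sign changes was not tested. With array weights the fold change was -0.049 for Eef1a2, 0.029 for Eif2a, 0.018 for Eif3h, 0.039 for Eif4h and -0.015 for Eif5a. With a common sum it was 0.016 for Eif2a, 0.014 for Eif3h and 0.025 for Eif4h, and with quantile normalization 0.0075 for Eif3h and 0.025 for Eif4h. When a library was left out, it ran from -0.016 to 0.090 for Eef1a1, -0.061 to 0.076 for Eef1a2, -0.15 to 0.012 for Eef2, -0.15 to 0.031 for Eif1, -0.054 to 0.053 for Eif2a, -0.043 to 0.11 for Eif2s3x, -0.084 to 0.069 for Eif3h, -0.035 to 0.095 for Eif4a2, -0.062 to 0.0048 for Eif4e, -0.051 to 0.025 for Eif4h, and -0.051 to 0.076 for Eif5a. Depth is unknown, and 3 libraries per genotype limit what could be called.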
